A study of Mus musculus with 45 samples.

Results

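The genes that make and load MHC class II molecules were followed in bone marrow-derived macrophages: H2-Aa, H2-Ab1, H2-Eb1, H2-DMa, H2-DMb1, Cd74 and Ciita. They were picked by symbol as a functional group, and all 7 matched 1 row each of the 29307 genes counted. All 7 passed the filter on low counts that left 12905 genes for testing. The smallest count of any of them in any library was 152 reads, for Ciita in an M0 library. In mm10, Cd74 is on chromosome 18 (60803848 to 60812652) and Ciita on chromosome 16 (10480059 to 10528418), both on the plus strand, and the other 5 are on chromosome 17.

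Macrophages came from C57BL/6N mice aged 6 to 10 weeks with 1 of 3 germline forms of Famin, which encodes a purine nucleoside-metabolizing enzyme. The forms were Faminp.254I, Faminp.254V and Faminp.284R, from mice engineered to express human variants. The paper also states that Faminp.254V is the form found in C57BL/6 mice. The cells grew for 6 days. For a further 24 h they then received no stimulus (M0), IFN-γ at 50 ng/mL together with LPS at 20 ng/mL (M1), or IL-4 at 20 ng/mL (M2). Each of the 9 combinations had 5 numbered libraries, 45 in all. Libraries with 1 genotype and 1 number were taken as 3 cultures of the same mouse, giving 15 mice, although the labels do not say so.

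MHC class II molecules display peptides from the endosomal pathway to CD4+ T cells. An alpha and a beta chain pair in the endoplasmic reticulum with the invariant chain, encoded by Cd74, which blocks the groove and steers the complex to endosomes. There proteases trim the invariant chain to a short groove peptide, and the H2-DM dimer exchanges it for antigen peptides. Ciita is a coactivator that does not bind DNA itself; it is recruited by the RFX, CREB and NF-Y factors on the X and Y boxes of class II promoters, and in macrophages it is known to be induced by IFN-γ. C57BL/6 mice carry a defective H2-Ea gene, so that H2-Eb1 mRNA is made without its alpha-chain partner.

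H2-Aa (chr17:34282744-34287823, minus strand) and H2-Ab1 (chr17:34257689-34269419, plus strand) encode the alpha and beta chains of I-A, and H2-Eb1 (chr17:34305867-34316674, plus strand) the beta chain of I-E. H2-DMa (chr17:34119541-34139101) and H2-DMb1 (chr17:34153072-34160230), both on the plus strand, encode the chains of the peptide exchange factor.

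Promoter windows of RefSeq (GRCm38.p6), from 250 bases before to 50 bases after the start of transcription, were given for 4 of the 7 genes, namely H2-Aa, H2-Eb1, H2-DMb1 and H2-DMa, the last with 2 windows. The stretches printed here show where members that moved together, and other class II chains, share letters of the X and Y boxes. They run 5′ to 3′ on the strand of the gene. Capitals mark the X-box letters CNNGNAAC and the Y-box core GATTGG.
H2-Aa: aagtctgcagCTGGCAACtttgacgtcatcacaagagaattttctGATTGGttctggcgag
H2-Eb1: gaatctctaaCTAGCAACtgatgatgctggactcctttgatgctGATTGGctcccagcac
H2-DMb1: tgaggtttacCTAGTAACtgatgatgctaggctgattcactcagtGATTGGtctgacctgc
H2-Oa: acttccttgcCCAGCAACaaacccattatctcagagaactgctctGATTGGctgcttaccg
H2-Ob: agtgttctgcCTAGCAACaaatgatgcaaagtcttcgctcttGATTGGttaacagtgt
H2-Eb2: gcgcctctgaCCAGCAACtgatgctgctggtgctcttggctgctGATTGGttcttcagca

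The H2-Aa stretch is chr17:34287857-34287917 on the minus strand, that of H2-Eb1 chr17:34305763-34305822 on the plus strand, and that of H2-DMb1 chr17:34153084-34153144 on the plus strand. Those of H2-Oa (chr17:34092290-34092350), H2-Ob (chr17:34238805-34238862) and H2-Eb2 (chr17:34325530-34325589) are also on the plus strand. In the 3 members the Y-box core begins 35, 34 and 35 bases after the first X-box letter, and in H2-Oa, H2-Ob and H2-Eb2 it begins 35, 32 and 34 bases after it. Of all 32851 promoter windows, 39.1% held CNNGNAAC on either strand, 16.1% held GATTGG, and 0.572% held both in this order on 1 strand with starts at most 50 bases apart. Neither window of H2-DMa held the ordered pair, nor did that of H2-DMb2. The letters and the distance were chosen with these promoters in view, and a match describes the sequence only.

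Marker genes matched the M2 label, and the M1 label mainly through Cxcl9. Cxcl9, a chemokine gene induced by IFN-γ, lay between 978 and 5339 CPM in M1 and at most at 1.45 CPM elsewhere, while Arg1, Retnla and Chil3 reached a summed 3034 to 12907 CPM in M2. Il12b stayed at or below 0.201 CPM in M1, and Nos2 ranged only from 3.01 to 149 CPM there. In M1, the Faminp.254I library of replicate 5 held 40.8 CPM of Arg1 and 49.1 CPM of Retnla, against at most 0.912 and 0.249 CPM in the other 14 M1 libraries. Its Chil3, at 33.7 CPM, was also above their highest value of 19.3 CPM. CPM here are read counts relative to library size after TMM scaling, a trimmed-mean correction, and total counts ran from 17239009 to 43740283 reads per library. Summed macrophage markers (6 genes, among them Csf1r and Adgre1) were 5431 CPM or higher in every library, with medians of 9563, 6355 and 6429 CPM in M0, M1 and M2. Of these 6 markers 4 were called lower in M1 and 5 in M2, where 40.5% and 39.8% of all genes were called lower. The class II genes rose, and the part of these markers in those values was not tested.

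MHC class II genes rose steeply in M1. Ciita was 33.2-fold higher than in M0 (log2 fold change 5.05, 95% confidence interval 4.66 to 5.45), the classical chains H2-Eb1, H2-Ab1 and H2-Aa 23.8-, 23.2- and 22.8-fold, Cd74 19.0-fold, H2-DMa 16.4-fold and H2-DMb1 9.37-fold. All 7 members were called higher by edgeR's quasi-likelihood test, where a call is a Benjamini-Hochberg adjusted p under 0.05 over all genes tested and folds are means over the genotypes. The largest adjusted p among them was 1.04e-24, for Ciita. In the same comparison 77.6% of all 12905 genes were called, 37.2% higher and 40.5% lower, and the median log2 fold change over all genes was -0.03, against 4.51 over the members. Every M1 library lay above every M0 library for each member, which held for 15.2% of all genes. In RNA from whole cultures, more cells of a kind and more RNA per cell cannot be told apart.

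**Figure D1:**
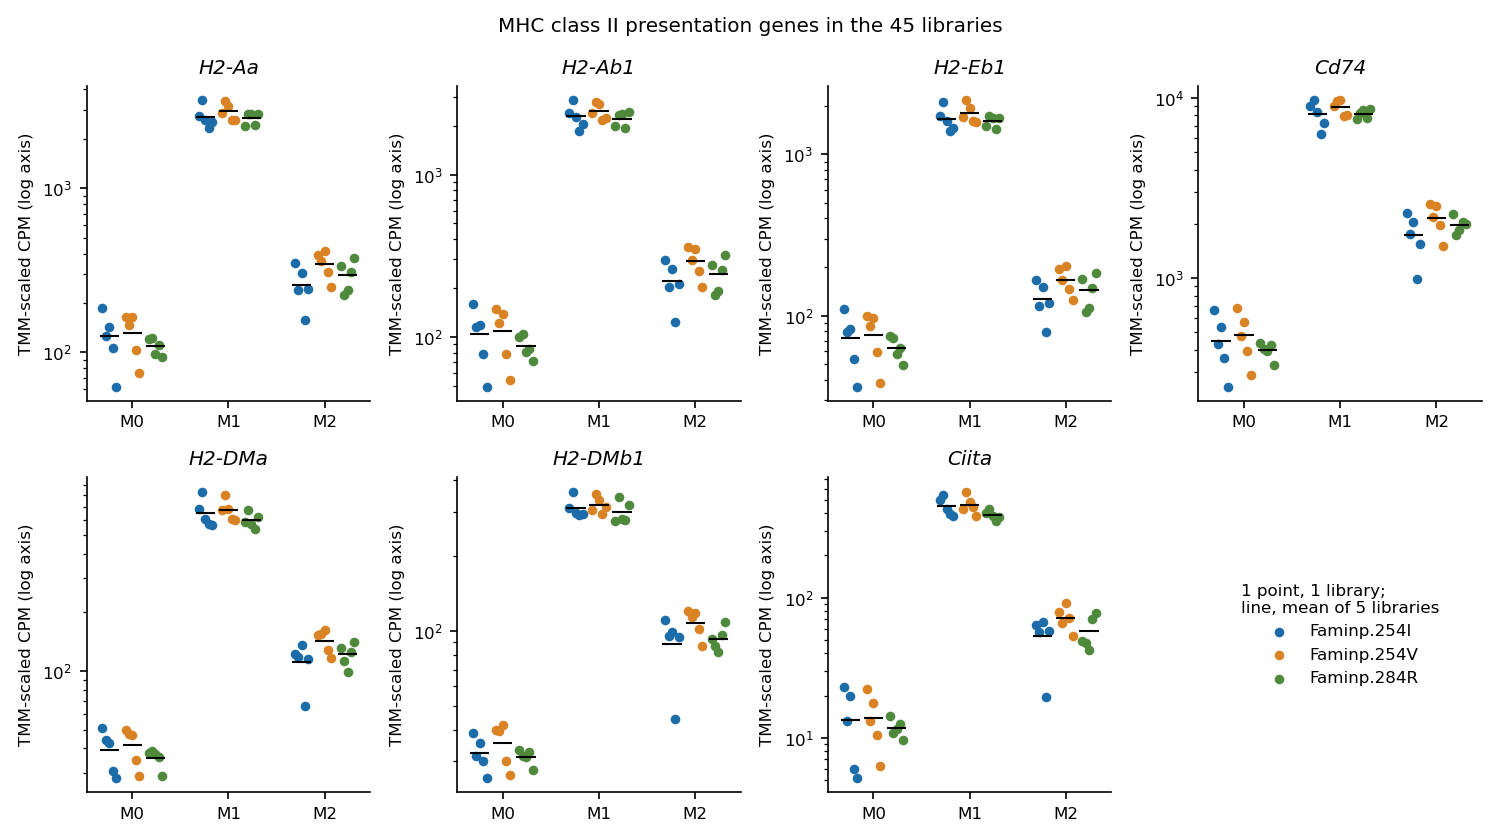
CPM after TMM scaling on a log axis, in M0, M1 and M2 for each member; a point is 1 library, colours are genotypes and the line is the mean of 5 libraries. For every member the 15 M1 libraries stand above all others, and the lowest M2 library is Faminp.254I replicate 4.

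Ciita, the coactivator, was the least abundant member in M0, at 5.15 CPM in the lowest, 12.5 in the median and 22.9 in the highest of the 15 libraries. In M1 it lay between 353 and 568 CPM, with a median of 426. The M0 and M1 ranges do not meet, and within the 15 mice the M1 culture exceeded the M0 culture by 19.2- to 74.6-fold, the widest range of folds among the members.

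Cd74, the invariant chain, went from 250 to 687 CPM in M0 (median 423) to between 6269 and 9699 CPM in M1 (median 8315). By mean CPM it ranked 279 of 29307 genes in M0 and 5 in M1. H2-Aa stood at 61.9 to 187 CPM in M0 (median 121) and at 2317 to 3426 in M1 (median 2759). H2-Ab1 followed closely, at 49.5 to 160 CPM in M0 (median 101) and 1845 to 2862 in M1 (median 2312), and H2-Eb1 at 36.3 to 110 CPM (median 72.7) and 1394 to 2154 (median 1664). All 3 classical chains were thus among the most abundant mRNAs of M1 cells. H2-Aa, H2-Ab1 and H2-Eb1 had ranks of 26, 34 and 56 by mean CPM. Per kilobase of annotated exons their ranks were 41, 33 and 36 of 29081 genes with a length.

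The H2-DM chains were lower in level. H2-DMa ranged from 28.1 to 50.8 CPM in M0 (median 37.7) and from 535 to 833 in M1 (median 607), and H2-DMb1 from 25.7 to 41.8 (median 31.6) and from 275 to 360 (median 305). Together the 7 members held a median of 0.0792% of all counted reads in M0, 1.57% in M1 and 0.310% in M2.

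In M2 the same 7 genes also rose, by far less. Ciita was 4.64-fold higher than in M0 (log2 fold change 2.21, 95% confidence interval 1.86 to 2.57) and Cd74 4.40-fold (2.14, 1.90 to 2.38), ahead of H2-DMa at 3.21-fold, H2-DMb1 at 2.92-fold, H2-Ab1 at 2.51-fold, H2-Aa at 2.46-fold and H2-Eb1 at 2.05-fold. All 7 were called higher, the largest adjusted p by edgeR being 3.46e-09 for H2-Eb1, and in this comparison 76.8% of all genes were called, 37% higher and 39.8% lower. M2 values ran from 994 to 2581 CPM for Cd74 (median 1999), from 157 to 416 for H2-Aa (median 307) and from 19.7 to 91.0 for Ciita (median 63.9). Each of the 15 mice had more of each member in its M2 than in its M0 culture, with the smallest fold, 1.45, for H2-Eb1.

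The M2 and M0 ranges were apart for Cd74, H2-DMa and H2-DMb1, and overlapped for the other 4 members. All M2 above all M0 libraries was found for 13.6% of all genes. Overlap rested largely on 1 M2 library, Faminp.254I replicate 4, and without it 6 of the 7 members had ranges apart, against 14.5% of all genes, H2-Eb1 being the exception with 105 CPM in the lowest M2 and 110 CPM in the highest M0 library.

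M1 exceeded M2 for all 7 members as well, from 3.21-fold for H2-DMb1 to 11.6-fold for H2-Eb1, with the largest adjusted p by edgeR at 3.43e-18, for Ciita. In that comparison 79.1% of all genes were called, 39% higher and 40.1% lower. All M1 libraries lay above all M2 libraries for each member, as they did for 17.6% of all genes. The comparisons of M1 and M2 with M0 share the M0 libraries, so their folds are given side by side and not correlated.

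**Figure D2:**
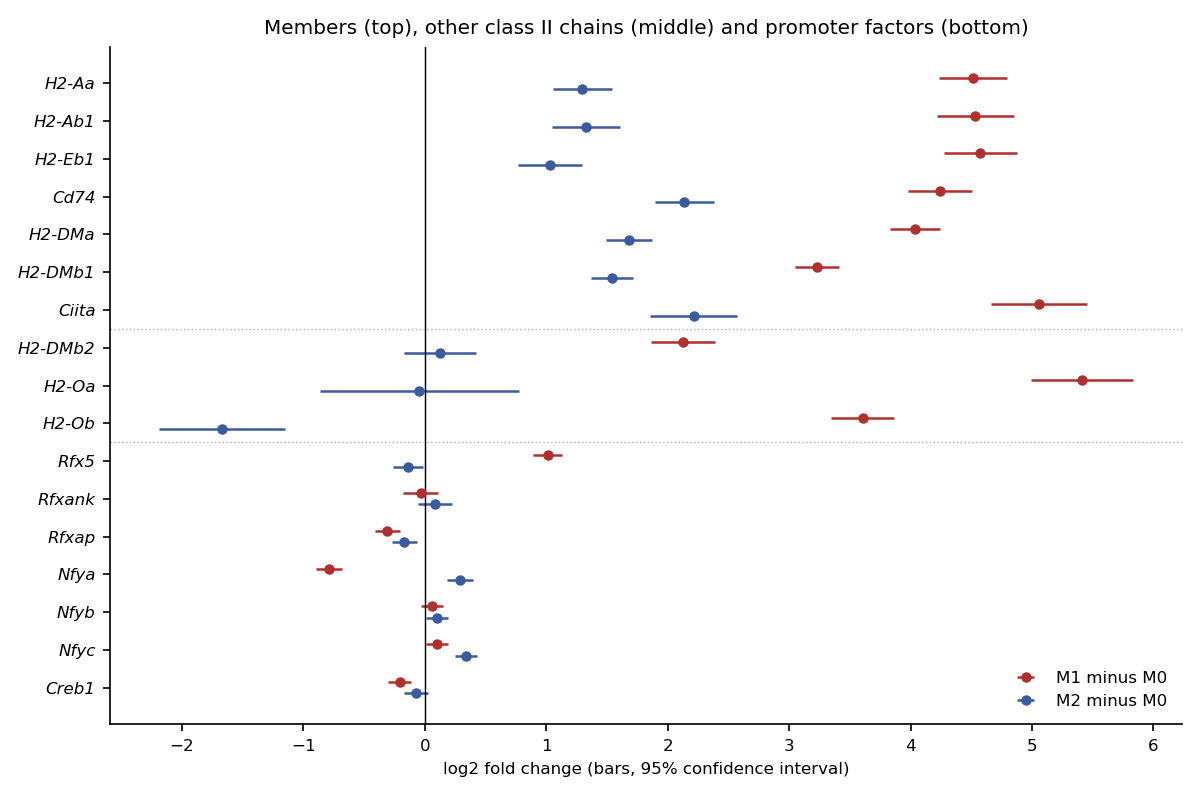
Log2 fold change of M1 over M0 (red) and M2 over M0 (blue), averaged over genotypes, with 95% confidence intervals, for the members, the other class II chains that were tested and the factors of the class II promoter. The members lie between 3.23 and 5.05 in M1 and between 1.03 and 2.21 in M2, whereas no promoter factor exceeds 1.01.

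Levels can be set against each other only per length, here CPM per kilobase of all annotated exons (mean ± SD, n = 15). In M0 the order was Cd74 (264 ± 74.9), H2-Ab1 (39.0 ± 12.9), H2-Eb1 (36.4 ± 11.4), H2-Aa (32.1 ± 9.16), H2-DMb1 (19.7 ± 3.02), H2-DMa (11.3 ± 2.26) and Ciita (1.37 ± 0.584). The 3 classical chains differed from each other by less than their SD. This SD is the spread between libraries and does not measure a difference between genes within a library. In every library, H2-Ab1 exceeded H2-Aa per kilobase. In M1 the order was Cd74 (4989 ± 583), H2-Ab1 (901 ± 118), H2-Eb1 (865 ± 118), H2-Aa (730 ± 89.3), H2-DMa (185 ± 24.8), H2-DMb1 (184 ± 16.4) and Ciita (45.3 ± 6.66). H2-Ab1 and H2-Eb1 again lay within 1 SD of each other, as did the H2-DM chains.

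M2 cells kept Cd74 far on top, at 1163 ± 245 CPM per kilobase. H2-Ab1 (98.3 ± 25.8), H2-Aa (79.1 ± 19.2) and H2-Eb1 (74.8 ± 18.2) followed within about 1 SD, between libraries, of their neighbours. Then came H2-DMb1 (57.5 ± 11.0), H2-DMa (36.3 ± 6.92) and Ciita (6.36 ± 1.83). Exon lengths were summed over all annotated transcripts, and transcripts that these cells do not make would lower a value.

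Members did not keep fixed proportions. The ratio of Cd74 to H2-Aa CPM within a library was 3.21 to 4.19 in M0 (median 3.61), 2.71 to 3.28 in M1 (median 3.06) and 5.28 to 7.80 in M2 (median 6.60). It was higher in M2 than in M0 in 15 of 15 mice, by 0.84 ± 0.18 on the log2 scale (SD). The M2 range met neither of the other ranges.

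The I-A pair, in contrast, moved in step. H2-Ab1 over H2-Aa had medians of 0.830, 0.834 and 0.837 in M0, M1 and M2, and the ratio changed from M0 to M2 by 0.04 ± 0.08 log2 units (SD, n = 15). H2-Eb1 over H2-Aa had medians of 0.586 in M0 and 0.608 in M1 and fell to 0.484 in M2, lower than in M0 in all 15 mice, by 0.25 ± 0.11 log2 units.

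The chains of H2-DM parted in M1. H2-DMb1 over H2-DMa was 0.713 to 0.978 in M0 (median 0.863), 0.432 to 0.523 in M1 (median 0.492) and 0.671 to 0.907 in M2 (median 0.768). M1 was lower than M0 in 15 of 15 mice. Part of the annotated exons of H2-DMa overlap those of Brd2, a chromatin reader gene on the opposite strand, and whether counting used the strand is not stated. Brd2 had medians of 307, 627 and 331 CPM in M0, M1 and M2, so it too was higher in M1; its part in the H2-DMa counts was not tested. H2-DMb1 has the near-identical copy H2-DMb2, counted at medians of 2.05, 8.76 and 2.19 CPM, and reads of such copies are uncertain. Ciita overlaps Dexi on the opposite strand, which stayed between 7.55 and 12.6 CPM in all libraries.

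**Figure D3:**
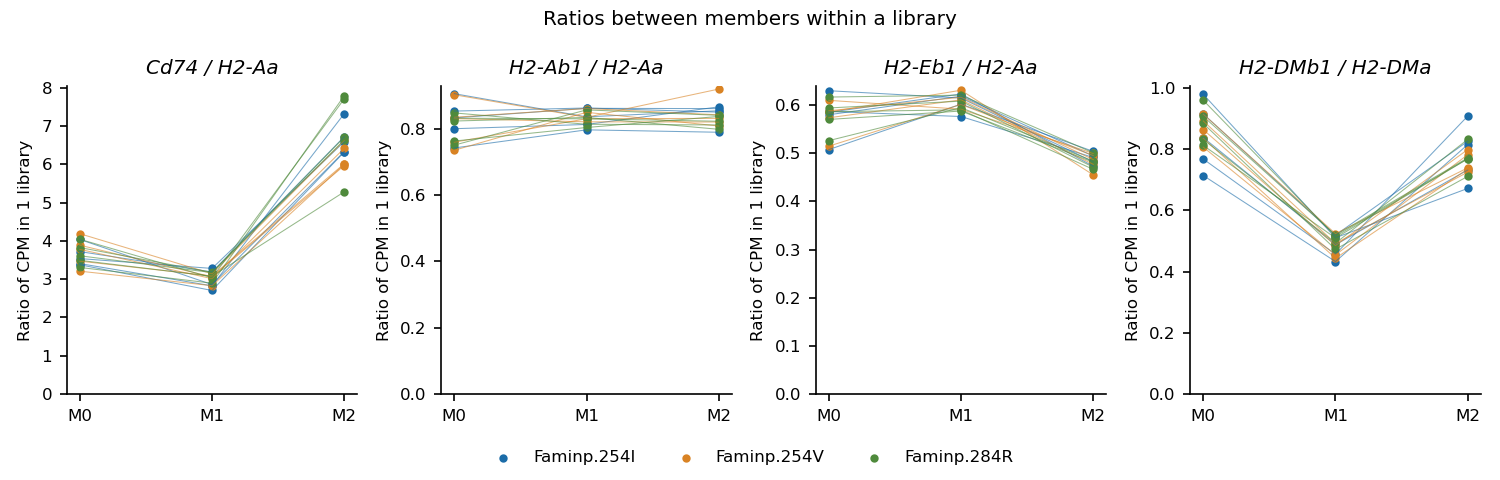
Ratio of the CPM of a pair of members within a library, on linear axes from 0, in M0, M1 and M2; points are libraries and lines join libraries of the same genotype and number. The ratio of Cd74 to H2-Aa is highest in M2, that of H2-Ab1 to H2-Aa stays between 0.735 and 0.919, and that of H2-DMb1 to H2-DMa is lowest in M1.

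Of the other class II chains, H2-Oa, H2-Ob and H2-DMb2 passed the filter and H2-Eb2 and the pseudogene H2-Ea-ps did not. H2-Oa and H2-Ob encode the chains of H2-O, an inhibitor of H2-DM best known from B cells. H2-Ob and H2-DMb2 rose in M1, where 37.2% of all genes rose. H2-Oa was higher in M1 too, but it is not counted here because of how it passed the filter. H2-Oa went from a median of 0.164 to 7.58 CPM (log2 fold change 5.41) and H2-Ob from 0.352 to 4.34 CPM (3.61). H2-DMb2 rose by 2.13 log2 units, and the largest adjusted p by edgeR among the 3, H2-Oa included, was 2.73e-18. H2-Oa had 0 to 16 counts a library in M0 and 97 to 366 in M1, and H2-Ob 3 to 15 and 75 to 191. Both folds therefore rest on few M0 reads. H2-Oa passed the filter through its M1 libraries, and it did not pass with only the M0 and M2 libraries. A rise of H2-Oa in M1 was thus nearly fixed by its being tested, and its fold is given as a description.

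In M2, H2-Ob had a median of 0.0804 CPM and was called lower than in M0 (log2 fold change -1.67, adjusted p by edgeR 1.69e-07). With 0 to 6 counts a library in M2, and few in M0, the size of this fold is uncertain. H2-DMb2 was not called (0.13). H2-Oa had 1 to 11 counts a library in M2, too few to compare with M0. H2-O mRNA in M1 remained low beside H2-DM mRNA, at 5.84 ± 2.02 CPM per kilobase for H2-Oa and 0.801 ± 0.196 for H2-Ob. H2-Eb2 was at most at 0.426 CPM and H2-Ea-ps was detected in 1 M0 library, at 0.0406 CPM.

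The promoter factors to which Ciita is recruited changed by at most 2.01-fold. Of the 7 genes tested, 2 rose and 3 fell in M1, where 37.2% of all genes rose and 40.5% fell. Rfx5, a DNA-binding subunit of the RFX complex, rose 2.01-fold, from a median of 18.3 to 37.9 CPM (adjusted p by edgeR 8.19e-19). Nfya, the DNA-contacting subunit of NF-Y, fell by 0.79 log2 units to a median of 109 CPM, Rfxap by 0.31 and Creb1 by 0.21. The rise of Nfyc (0.10) was lost without scaling factors, with at least 10 counts required in every library, and when 1 of 4 mice was left out, namely Faminp.254V 4 or 5 or Faminp.284R 3 or 4. Rfxank (-0.03) and Nfyb (0.06) were not called.

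In M2, 3 of the 7 rose and 2 fell, against 37% and 39.8% of all genes. Nfya (0.29) and Nfyc (0.34) rose and Rfxap (-0.17) fell, whereas Rfxank (0.08) and Creb1 (-0.07) were not called with TMM scaling; Creb1 was called lower without scaling factors. The calls for Nfyb (0.10) and Rfx5 (-0.14) were each lost in 7 and 9 of 15 fits that left out 1 mouse, with adjusted p by edgeR of up to 0.143 and 0.148. Both were also lost with only the libraries compared, and that of Nfyb without scaling factors (adjusted p 0.600), without a filter on low counts and with at least 10 counts in every library. For Nfyb the mice were Faminp.254I 2 and 3, Faminp.254V 2 and 3, and Faminp.284R 1, 2 and 3, and for Rfx5 they were Faminp.254I 1, 2 and 4, Faminp.254V 1, 2, 4 and 5, and Faminp.284R 2 and 3. Rfx5 had a median of 16.5 CPM in M2, below the 18.3 CPM of M0, while the 7 members were all higher. Medians over the list were -0.03 in M1 and 0.08 in M2, next to -0.03 and -0.02 over all genes.

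Among 16 genes upstream of Ciita (receptors, kinases and transcription factors of the IFN-γ and IL-4 pathways, and inhibitors), 11 rose and 3 fell in M1 (37.2% and 40.5% of all genes), and 7 rose and 7 fell in M2, near the 37% and 39.8% of all genes. Irf1, a transcription factor induced by IFN-γ, rose from a median of 109 to 1382 CPM in M1 (13.5-fold) and was not called in M2 (1.05-fold, adjusted p by edgeR 0.323). Irf4, a factor of IL-4-treated macrophages, fell in M1 and rose in M2, with medians of 8.41, 1.24 and 224 CPM in M0, M1 and M2. Socs1, a feedback inhibitor of both receptors' signalling, rose in both states, from 1.07 CPM to 182 in M1 and 39.8 in M2, the order of states seen for the members. The medians over this list were 0.83 in M1 and 0.03 in M2.

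Of 9 endosomal processing genes, 4 rose and 5 fell in M1, with a median of -0.12, and 3 rose and 5 fell in M2, also with a median of -0.12. Over all genes 37.2% rose and 40.5% fell in M1 and 37% and 39.8% in M2, so the split of the list was like that of all genes. Ctsl, a cathepsin that trims the invariant chain in thymic epithelium, fell from a median of 3149 to 485 CPM in M1 (log2 fold change -2.72) and to 2886 CPM in M2 (-0.20), the latter call being lost without the mouse Faminp.254I 1 (adjusted p by edgeR 0.0503). Ctsd, an aspartic cathepsin, fell by 1.57 log2 units in M1 and 0.78 in M2. Sppl2a, which cleaves the remnant of the invariant chain in the membrane, rose 2.03-fold in M1, and its small fall in M2 (-0.12) was lost in 11 of 15 fits that left out a mouse, namely all but those without Faminp.254I 2 or 5, Faminp.254V 2 or Faminp.284R 2.

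Of 7 genes for surface turnover and for partners of Cd74, 2 rose and 2 fell in M1 (37.2% and 40.5% of all genes), and 4 rose and 2 fell in M2 (37% and 39.8%). Cxcr4, which binds the cytokine Mif together with Cd74, fell by 4.65 log2 units in M1 and by 2.32 in M2. Cd44, the signalling partner of Cd74, fell by 0.90 in M1 and rose by 0.78 in M2. March1, a ubiquitin ligase that removes class II molecules from the surface, rose in both, by 0.81 and 0.32. The largest adjusted p by edgeR among these calls was 0.00501, for March1 in M2.

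Dendritic cell markers moved in both directions in M1, where 3 rose and 2 fell of 5 tested (37.2% and 40.5% of all genes). In M2, 4 rose and 1 was not called, while 37% of all genes rose and 39.8% fell. The 7 dendritic cell markers summed to 44.5 to 309 CPM in M0, 265 to 505 in M1 and 1349 to 2402 in M2. Itgax fell from a median of 139 CPM in M0 to 56.4 in M1 and made up most of the M2 sum (median 2035 CPM), Clec9a most of the M1 sum (median 294 CPM, against 0.407 in M0), while Zbtb46 fell in M1 and rose in M2 (medians of 0.578, 0.316 and 7.34 CPM in M0, M1 and M2). Flt3 and Ccr7, on the same list, stayed at or under 0.396 CPM. The part of these markers in the class II values was not tested. Among B cell markers, Cd79a, Ms4a1 and Pax5 were each at most 0.412 CPM, and the 3 T cell markers summed to at most 0.193 CPM, all near 0. Cd79b, also a B cell marker, had medians of 9.11, 6.76 and 3.11 CPM in M0, M1 and M2 and fell in both polarized states.

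By pattern over the 9 group means, the non-member genes most like the members were Mia2, Sub1, Pacs2, Slc4a11 and Psma5, with Pearson's r of 0.997 to 0.999 against the mean of the standardized members, over 12898 genes. The members themselves had r of 0.987 to 0.999 with that mean. The 9 points fall mostly into 3 states, so high values of r are easily reached. The sizes of the changes varied. Pacs2, a sorting protein, rose only from a median of 189 CPM in M0 to 391 in M1, and Psma5, a proteasome subunit, from 23.8 to 61.6. Slc4a11 rose by a size like those of the members, from a median of 1.69 CPM in M0 to 20.6 in M1 and 5.12 in M2. No test was made of likeness.

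Across genotypes no member was called different. In the 3 comparisons averaged over M0, M1 and M2, the log2 differences of the members lay between -0.09 and 0.01 for Faminp.284R minus Faminp.254I, between 0.15 and 0.20 for Faminp.254V minus Faminp.254I, and between -0.27 and -0.16 for Faminp.284R minus Faminp.254V. The 95% confidence intervals of these ran from -0.43 to 0.25, from -0.16 to 0.52 and from -0.61 to 0.07 over the 7 members. The fit behind them had no term for the mouse and took the 3 cultures of a mouse as independent, so these intervals may be too narrow. Of all genes, 0.0232%, 0.0155% and 0% were called. At an unadjusted p under 0.05 the edgeR fit gave 0, 0 and 1 members, the last being H2-DMa (log2 difference -0.21, adjusted p 0.950), and neither DESeq2 nor limma-voom called any member.

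Within single states the same held for all 9 comparisons, with member differences from -0.33 to 0.45. The largest were in M2 between Faminp.254V and Faminp.254I, where all 7 differences were above 0 and Ciita had 0.45 (95% confidence interval -0.13 to 1.03). H2-DMa alone had an unadjusted p under 0.05 there (0.36, interval 0.05 to 0.68, adjusted p by edgeR 0.998). Its M2 values were 122, 117, 136, 66.3 and 115 CPM in Faminp.254I, 153, 155, 162, 128 and 117 CPM in Faminp.254V, and 130, 113, 98.8, 125 and 141 CPM in Faminp.284R. Thus the first 2 groups overlap, and 1 Faminp.254I library, replicate 4, is far below the rest. No gene was called in 6 of the 9 comparisons (0%), and 0.00775% of genes were called for Faminp.284R minus Faminp.254I in M2. In M1, 0.116% of genes were called for Faminp.284R minus Faminp.254V, all higher, and 0.271% for Faminp.284R minus Faminp.254I, 0.225% higher and 0.0465% lower. The fit took 1 spread per gene over all 9 groups, so intervals and p-values within a state do not follow that state's own spread.

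In M1, Cd74 was at 8112 ± 1376, 8857 ± 875 and 8162 ± 505 CPM (mean ± SD, n = 5) in Faminp.254I, Faminp.254V and Faminp.284R. Ciita was at 448 ± 68.2, 460 ± 70.4 and 388 ± 28.1 CPM there. For Cd74 the means differed by less than the largest SD of a group. For Ciita the Faminp.284R mean was the lowest, and it was not called against Faminp.254I (adjusted p by edgeR 0.981) or Faminp.254V (0.970). With the mean over its 3 cultures as the value of a mouse, two-sided exact permutation tests of 5 mice against 5, for 7 genes and 3 comparisons, gave no p below 0.119, where the smallest p these numbers allow is 0.00794. These tests do not use the replicate number. Within numbers, Faminp.254V exceeded Faminp.254I in 5 of 5 for each of the 7 members, by means of 0.17 (H2-DMb1) to 0.24 (Ciita) log2 units. The members share their libraries, and with the number as a replicate block no member was called in the averaged comparison; the smallest adjusted p for it over all alternatives was 0.634.

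**Figure D4:**
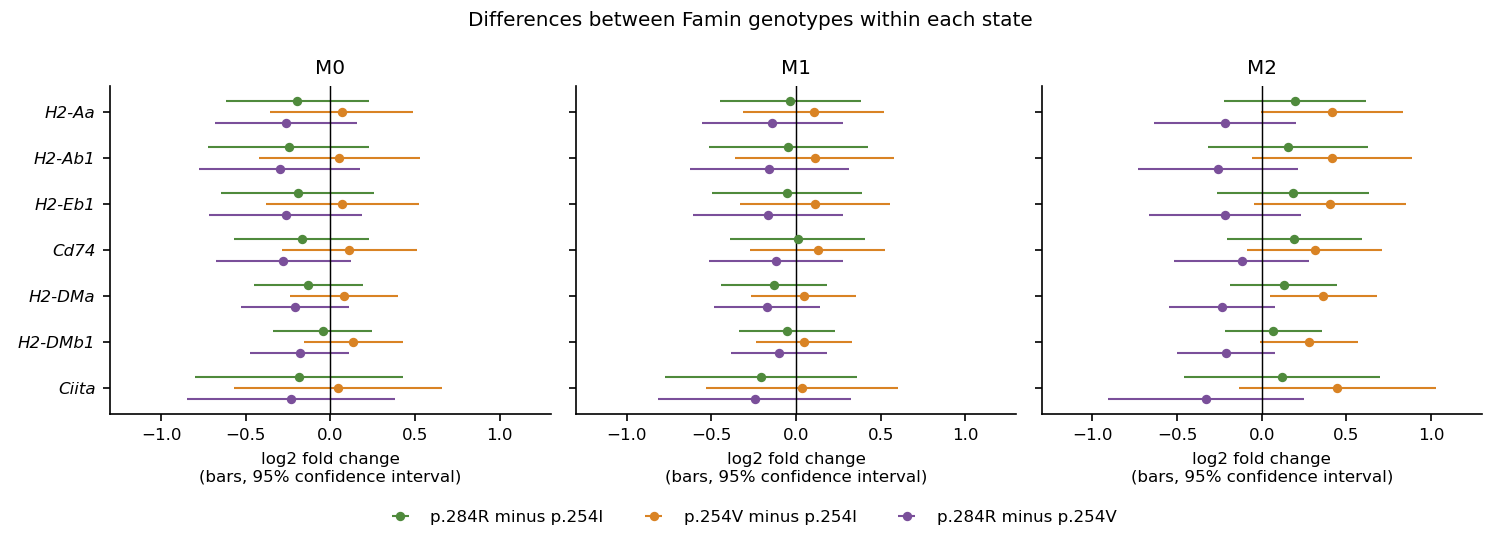
Log2 differences between the 3 genotypes within M0, M1 and M2 for each member, with 95% confidence intervals from the edgeR fit. The spread behind the intervals was estimated over all 9 groups together, not within a state. All intervals but that of H2-DMa for Faminp.254V minus Faminp.254I in M2 include 0.

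Polarization raised all 7 members within each genotype. Folds of M1 over M0 ran from 9.59 (H2-DMb1) to 33.5 (Ciita) in Faminp.254I, from 9.01 to 33.3 in Faminp.254V and from 9.53 to 32.9 in Faminp.284R, for the same 2 genes. In these comparisons 29.3%, 30.6% and 31.2% of all genes were called higher, of 60.4%, 62.9% and 63.7% called. Folds of M2 over M0 ran from 1.74 (H2-Eb1) to 3.94 (Ciita) in Faminp.254I, from 2.19 (H2-Eb1) to 5.20 (Ciita) in Faminp.254V and from 2.26 (H2-Eb1) to 4.97 (Cd74) in Faminp.284R. The largest adjusted p by edgeR was 0.00233, for H2-Eb1 in Faminp.254I, and 30.2%, 28.3% and 29.9% of all genes were called higher, of 61.2%, 57.8% and 60.5% called.

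The response to polarization was also compared between genotypes, as interaction terms. For M1 the change from M0 differed from that of Faminp.254I by -0.02 to 0.20 log2 units in Faminp.284R and by -0.09 to 0.06 in Faminp.254V, over the members. For M2 the differences were 0.11 to 0.40 in Faminp.284R and 0.14 to 0.40 in Faminp.254V. None was called, 0% of all genes were called in each of the 4 interactions, and no member had an unadjusted p under 0.05 by edgeR. The intervals reached from -0.54 to 1.15 and from -0.44 to 1.24 in M2.

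Variation between libraries was smallest in M1 for every member. The coefficient of variation over 15 libraries was 15.4% to 42.7% in M0, 8.91% to 14.7% in M1 and 19.1% to 28.7% in M2, and Ciita had the highest value in each state. Across the 15 mice, Ciita followed the mean of the other 6 members with Pearson's r of 0.925, 0.843 and 0.922 in M0, M1 and M2 (Spearman's rho 0.954, 0.682 and 0.818), and with r of 0.934, 0.659 and 0.787 without the 2 mice farthest from the median of Ciita. Within replicate numbers the r were 0.803, 0.764 and 0.960. These are descriptions, since the values of a library share its preparation and scaling. The mean of the members in M0 had r of 0.541 with that in M1 and 0.545 with that in M2.

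In M0 the library numbered 5 was the lowest of its 5 for all 7 members in Faminp.254I, in Faminp.254V and in Faminp.284R. For Ciita the M0 values from number 1 to 5 were 22.9, 13.1, 19.9, 5.98 and 5.15 CPM in Faminp.254I, 22.2, 13.1, 17.6, 10.4 and 6.30 in Faminp.254V, and 14.4, 10.8, 11.5, 12.5 and 9.66 in Faminp.284R. Libraries numbered 5 had summed macrophage markers of 7689, 7987 and 8223 CPM, the lowest 3 of the 15 M0 libraries, and dendritic cell markers of 141 to 159 CPM, in the middle of the range. Their neutrophil marker sums were 6.95, 10.3 and 7.60 CPM, each the lowest of its 5. What the number stands for is not given, and its part in these values was not tested.

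In M1 the library numbered 2 was the highest for 7, 6 and 5 of the members in Faminp.254I, Faminp.254V and Faminp.284R. M2 showed no such order: number 5 was lowest for all 7 members in Faminp.254V and highest for 6 in Faminp.284R, and number 4 was lowest for all 7 in Faminp.254I. That Faminp.254I library held 994 CPM of Cd74 against 1552 to 2303 CPM in the other 4, and 19.7 CPM of Ciita against 56.4 to 66.5. It also had the lowest dendritic cell marker sum (1349 CPM), the lowest Retnla (1286 CPM) and the highest macrophage marker sum (7981 CPM) of the 15 M2 libraries. Without it, the Faminp.254I mean of Ciita in M2 was 61.1 ± 4.87 CPM (SD, n = 4), between those of Faminp.284R (57.3) and Faminp.254V (71.9).

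**Figure D5:**
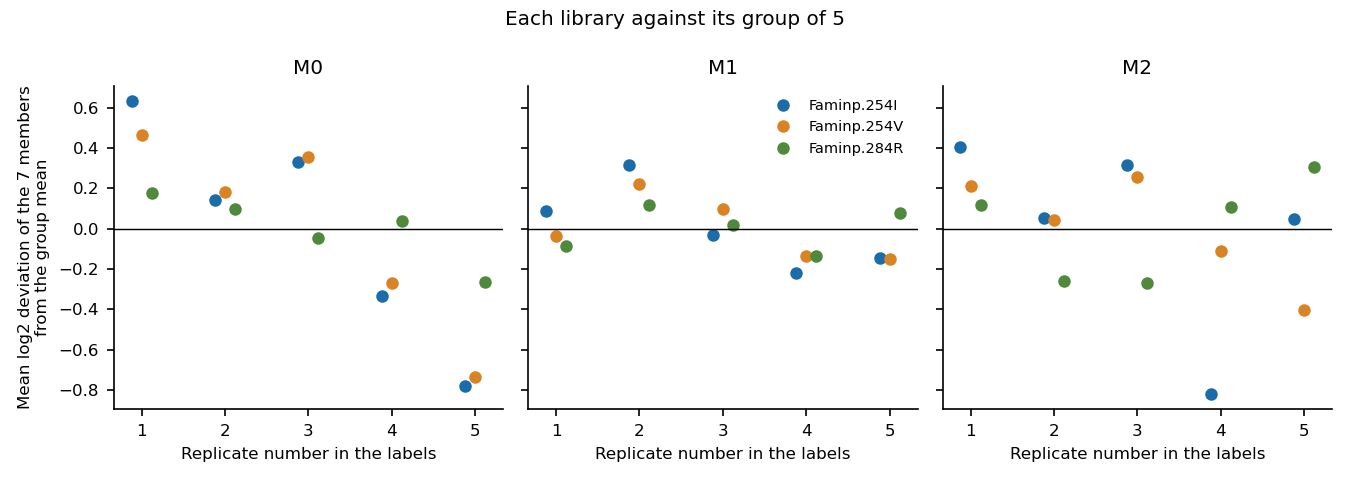
Mean log2 deviation of the 7 members from their group of 5, for each library by its replicate number, in M0, M1 and M2; colours are genotypes. In M0 the libraries numbered 5 are the lowest of their groups, at -0.78, -0.74 and -0.27, and in M2 Faminp.254I replicate 4 stands lowest, at -0.82.

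Over the deviations of the 45 libraries from their group means, the non-member genes that followed the members best were Prcp, Serinc5, Lman2, Peli2 and Ndfip1, with Pearson's r of 0.837 to 0.863. The members had r of 0.906 to 0.985 with their own mean. Prcp encodes a lysosomal carboxypeptidase and Lman2 a cargo receptor of the early secretory pathway. Their levels by state differed from those of the members, since Serinc5 had medians of 39.5 CPM in M0 and 9.93 in M1 and Peli2 of 49.1 and 22.7.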

How the data were processed

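The authors deposited counts of reads per Ensembl gene for 45 libraries and a second table of CPM for 11900 genes, whose values equal the deposited counts over that table's library totals. Stranded mRNA libraries were sequenced as 50-base single reads. The labels and methods name Trim Galore, HISAT2 and mm10, and the series text other tools. The counter, its annotation and its use of strand are not given in the sources used here. Symbols came from the CPM table, where some had turned into spreadsheet dates, and from GENCODE vM21, which also gave coordinates and exon lengths.

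Counts were fitted with edgeR 4.0.16 in R 4.3.3 (filterByExpr over 9 groups, TMM factors 0.939 to 1.10, robust glmQLFit without the legacy method), and calls were made at a Benjamini-Hochberg adjusted p under 0.05. Limma 3.58.1 and DESeq2 1.42.0 served as alternatives. The fit was tested on simulated counts. Exact permutation tests over mice used log2(CPM + 1). P-values measure the spread between libraries, whose independence as mice is not stated. Members, lists and motifs were chosen with earlier results of these data known. Named were all members, the other class II chains and promoter factors, the 3 genes of each further list with the largest changes, and the 5 genes most like the members by each measure. Deviations from group means correlated over 0.1 in 15 of 15 same-numbered pairs between genotypes in M0 and in M1 and in 13 of 15 in M2. Within mice they did so in 13 of 15 (M0 with M1), 15 of 15 (M0 with M2) and 10 of 15 pairs (M1 with M2). Between genotypes, r ran from 0.122 to 0.864 in M0, 0.283 to 0.871 in M1 and -0.419 to 0.784 in M2. Within mice r ran from 0.0356 to 0.469, 0.14 to 0.622 and -0.182 to 0.468, in the order given. Pairs of different numbers were not compared, and the mouse assignment was not tested. A marker gene of another cell type is not reported here.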

Additional observations from a re-analysis of the deposited data

Results flagged for a closer look

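Of 63 groups of 5 libraries (7 members, 9 groups), 3 had a library far from the others by Dixon's test of the gap over the range (critical value 0.710). Chance flags about 1 in 20 such groups. Ciita in Faminp.254I M2 had replicate 4 at 19.7 CPM, with the next library at 56.4 CPM (gap over range 0.784). H2-DMb1 in the same group had replicate 4 at 44.5 CPM, with the next at 94.8 CPM (0.760). Both values come from 1 library, in which all 7 members were the lowest of their group. H2-DMa in Faminp.284R M0 had replicate 5 at 28.9 CPM, with the next at 36.1 CPM (0.716). Differences between genotypes in the response to polarization were tested as interactions, and none was called for a member.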

How the results depend on the processing

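All 7 members stayed called in M1 minus M0, M2 minus M0 and M1 minus M2, and no member was called in a genotype or interaction comparison, under other size factors, no scaling factors, DESeq2, limma-voom, other filters, only the libraries compared, and with each mouse left out. Counts summed per mouse, run for the averaged genotype comparisons alone, called no member either. Without 1 mouse the log2 fold change of Ciita ranged from 5.01 to 5.16 in M1 and from 2.15 to 2.29 in M2, and that of H2-Eb1 in M2 from 0.99 to 1.09. With a replicate block (the mouse for polarizations, the number for genotypes) Ciita had 5.14 in M1 and 2.25 in M2, and the block changed no member's call. Of member differences that were not called, 154 of the alternative fits gave the opposite sign. Without scaling factors the median of all genes moved from -0.03 to -0.13 in M1 minus M0. The count of all genes called in Faminp.284R minus Faminp.254I within M1 (35) went from 1 with only the libraries compared to 118 without Faminp.284R replicate 2, and that against Faminp.254V (15) from 0 with limma-voom to 72 without the same mouse. In the averaged comparisons it reached 18 (from 3) and 9 (from 0) without Faminp.284R replicate 1, and 5 (from 2) with DESeq2. Of 905 alternative fits of the other named genes, 41 changed a call, all for differences of at most 0.20 log2 units. Read counts of the members were high in every library. The genotype intervals depend on the number of libraries and on the spread between them, which was estimated over all 9 groups together. The interval for Ciita in M0 ran from -0.57 to 0.66 log2 units (Faminp.254V minus Faminp.254I). Ciita had a coefficient of variation of 42.7% in M0, 14.7% in M1 and 28.7% in M2. Its interval may thus be too narrow within M0 and too wide within M1.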
